A study of Mus musculus with 12 samples.

Results

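The comparison described here is the genotype by interferon interaction in B16 cells, a mouse melanoma line: the change that interferon beta (IFNb) caused in Adar-null cells minus the change it caused in control cells. All 12 of the 12 RNA-seq libraries enter it, 3 in each of 4 groups. Control cells had received Cas9 with a non-targeting guide (number 5), Adar-null cells had received Cas9 with Adar guide number 1, and both were transfected transiently and then subcloned. Each genotype was cultured for 36 h with IFNb at 1000 U/mL or with its vehicle, PBS with BSA. Total RNA was depleted of ribosomal RNA and sequenced as directional, paired-end libraries. Each genotype is therefore represented by 1 guide, and whether by 1 or several subclones is not stated. The labels do not say whether replicate libraries were grown separately, and p-values then reflect library-to-library spread that may be technical. Of 11561 genes with enough counts to test, 6855 (59.3%) differed in their IFNb response between genotypes at an adjusted p under 0.05 (edgeR quasi-likelihood test), and 1428 of them (12.4% of genes tested) responded in opposite directions.

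ADAR is an enzyme that converts adenosine to inosine in double-stranded RNA, and its longer isoform is itself induced by interferon. Interferon also induces sensors of double-stranded RNA, among them the kinase PKR and the nuclease activators of the OAS family, which can slow translation or cut RNA when they find unedited duplexes. Phosphorylation of the translation factor eIF2 by PKR or related kinases is the trigger of the integrated stress response, in which the transcription factor ATF4 is translated and turns on genes for amino acid supply, redox balance and stress adaptation. E2F factors drive genes of the G1 to S transition and DNA replication, the DREAM and MuvB complexes act on mitotic genes through a promoter element called CHR, and SREBP2 drives cholesterol synthesis.

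The libraries held 5375649 to 7153480 counts. Levels below are in CPM, the depth-scaled count with trimmed-mean (TMM) factors, and responses are log2 fold changes of IFNb over vehicle, with their standard error (SE) from the fit. The unprocessed ribosomal transcript Rn45s took 21.09% to 22.89% of counts in vehicle libraries and 24.9% to 28.49% in IFNb libraries. Its part in the results was not tested, but in a refit without it the interaction call held for all 171 genes named by rule. Of genes called opposite, 664 of 683 up in Adar-null cells and 745 of 745 down stayed so called. Tars and Lamp1 did not. The 8 melanocyte markers were all present, with summed levels of 15410 to 16620 CPM across the 6 vehicle libraries, 13520 to 13820 CPM in control IFNb and 10700 to 11430 CPM in Adar-null IFNb. The 13 leukocyte markers in the table summed to at most 2.101 CPM in any library and none reached the level needed for testing. The 5 endothelial markers summed to 10.74 to 16.96 CPM in Adar-null IFNb and to at most 4.09 CPM elsewhere, with Vwf the highest. In bulk RNA, fewer cells in a state and less RNA per cell cannot be told apart.

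Adar (chr3:89715022-89753446, plus strand, GRCm38) was counted in every library. Its levels were 74.3, 70.3 and 71.9 CPM in control vehicle, 377, 384 and 392 CPM in control IFNb, 65.6, 56.3 and 56.7 CPM in Adar-null vehicle, and 418, 422 and 384 CPM in Adar-null IFNb. The vehicle level was lower in Adar-null cells (log2 difference -0.28, adjusted p = 0.0017), and IFNb raised the count in both genotypes. Small Cas9 deletions need not change a whole-gene count, and the edit is not tested by these values.

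To show the letters that lie near the start sites of genes in the groups described below, promoter stretches were read from RefSeq (GRCm38.p6), whose promoter table matched 8309 of the 11561 genes tested. Each is printed 5′ to 3′ on the gene's own strand with the motif in capitals. These genes were chosen because their window holds the motif. The first group carries TGATGNAA, the letters bound by ATF4 with a C/EBP partner, or its reverse complement, and was higher with IFNb in Adar-null cells and lower with IFNb in control cells.
Slc7a11 (chr3:50443623-50443709, minus): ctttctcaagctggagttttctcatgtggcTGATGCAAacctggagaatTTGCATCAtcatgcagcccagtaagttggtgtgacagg
Chac1 (chr2:119351019-119351086, plus): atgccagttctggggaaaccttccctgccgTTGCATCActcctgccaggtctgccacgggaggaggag
Atf3 (chr1:191183406-191183473, minus): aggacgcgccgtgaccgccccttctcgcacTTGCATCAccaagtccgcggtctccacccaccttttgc
Herpud1 (chr8:94386287-94386354, plus): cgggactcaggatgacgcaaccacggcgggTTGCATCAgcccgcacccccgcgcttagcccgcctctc
Gars (chr6:55037941-55038000, plus): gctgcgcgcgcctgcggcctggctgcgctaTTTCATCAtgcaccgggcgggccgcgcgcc

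The same motif also lies in promoters of genes that did not move in opposite directions, shown for contrast. Asns fell in both genotypes, by less in Adar-null cells, and Nupr1 fell in control cells without passing the test in Adar-null cells.
Asns (chr6:7693210-7693262, minus): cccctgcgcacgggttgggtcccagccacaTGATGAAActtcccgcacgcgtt
Nupr1 (chr7:126625543-126625610, minus): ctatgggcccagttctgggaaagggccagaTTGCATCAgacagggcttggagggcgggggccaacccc

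The next group moved the other way, up in control cells and down in Adar-null cells. Uhrf1 and Chaf1a, from the replication list, carry the E2F letters GGCGGGAA in reverse complement, and Hmgcs1, from the cholesterol list, carries the SREBP letters TCACNCCA.
Uhrf1 (chr17:56303259-56303326, plus): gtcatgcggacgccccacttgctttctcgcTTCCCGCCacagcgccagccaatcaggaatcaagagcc
Chaf1a (chr17:56040339-56040406, plus): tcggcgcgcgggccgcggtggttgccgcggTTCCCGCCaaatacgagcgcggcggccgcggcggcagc
Hmgcs1 (chr13:119690184-119690251, plus): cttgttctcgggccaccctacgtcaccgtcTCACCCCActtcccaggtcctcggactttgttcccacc

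Most listed mitotic genes fell in both genotypes, and the windows of 2 such genes that hold the CHR letters TTTGAA are shown.
Mki67 (chr7:135716442-135716525, minus): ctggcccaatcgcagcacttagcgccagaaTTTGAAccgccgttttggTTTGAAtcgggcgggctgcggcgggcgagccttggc
Cdc20 (chr4:118437344-118437391, minus): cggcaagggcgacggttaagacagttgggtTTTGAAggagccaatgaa

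Counted on both strands over the 300-base window (250 before to 50 after the start), TGATGNAA lay in 240 of 10673 promoters of tested genes (2.25%). It lay in 29 of 663 promoters (4.37%) of genes that moved up in Adar-null and down in control cells, in 13 of 134 (9.7%) of damped genes that fell less in Adar-null cells, in 9 of 32 promoters (28.1%) of the listed ATF4 targets and in 5 of 12 promoters (41.7%) of the aminoacyl-tRNA synthetases. It lay in 1.88% of promoters of genes that moved the other way. GGCGGGAA lay in 4.09% of promoters of tested genes, in 4.29% of genes up in control and down in Adar-null cells and in 6 of 33 (18.2%) of the replication list, while TTTGAA lay in 11.7% of promoters of tested genes, in 15.2% of the replication list and in 20 of 27 (74.1%) of the mitotic list. TCACNCCA lay in 3.6% of promoters of tested genes, in 3.35% of genes up in control and down in Adar-null cells and in 2 of 22 (9.09%) of the cholesterol list. GGCGGGAA lay in 2 of 22 (9.09%) of that list as well. Other motifs were counted too. Among them, CCAAT lay in 38.2% of promoters of tested genes and in 77.3% of the cholesterol, 63.6% of the replication and 81.5% of the mitotic list. None of TGATGNAA, GGCGGGAA, TTTGAA and TCACNCCA contains another, and a match is a description of letters, not a site in use.

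Across all genes tested the IFNb response passed the test for 6133 genes (53%) in control cells, 3067 up and 3066 down (26.5% each), and for 8364 genes (72.3%) in Adar-null cells, 4232 up (36.6%) and 4132 down (35.7%). The interaction was higher (more positive in Adar-null cells) for 3308 genes (28.6%) and lower for 3547 (30.7%). In vehicle, 753 genes (6.51%) differed between genotypes, and with IFNb 8388 (72.6%) did. All of these contrasts share libraries, so their counts are set side by side and not compared by a test. The median response over all genes was -0.00493 in control and 0.0122 in Adar-null cells, on the log2 scale.

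Genes with a called interaction fell into 7 classes by which responses passed. Amplified genes, with both responses in 1 direction and the larger in Adar-null cells, numbered 1432 (12.4%), 606 with a higher and 826 with a lower interaction. Damped genes, with the smaller response in Adar-null cells, numbered 287 (2.48%). Adar-null only genes, where the control response did not pass, were the largest class with 2690 (23.3%), and in 2311 of them the control response was under 0.25 in absolute log2. Control only genes numbered 897 (7.76%), 805 of them with an Adar-null response under 0.25. Genes down in control and up in Adar-null cells numbered 683 (5.91%), genes up in control and down in Adar-null cells numbered 745 (6.44%), and 121 (1.05%) had a called difference although neither response passed. A response that did not pass is not shown to be absent.

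**Figure D1:**
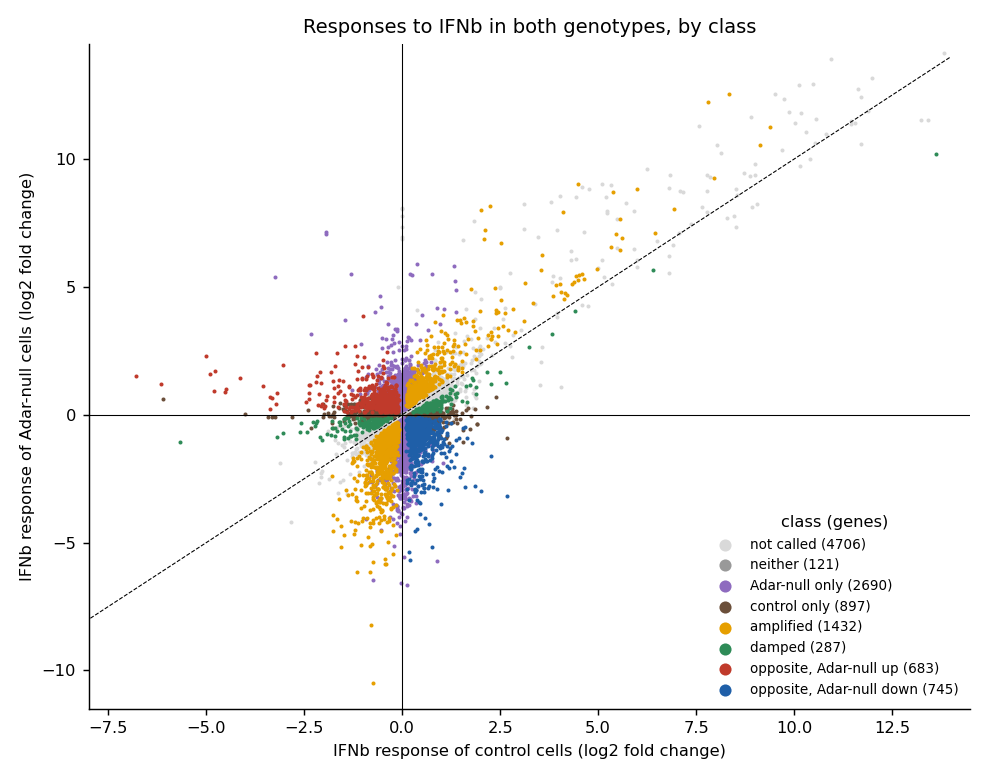
IFNb response (log2 fold change) of each tested gene in control cells (horizontal axis) and in Adar-null cells (vertical axis), coloured by response class, with a dashed line where both are equal. The 683 and 745 genes of the opposite classes lie in the upper left and lower right, and most sit near the centre.

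Most opposite responses were small. The median gene of the class that rose in Adar-null cells had a control response of -0.42 and an Adar-null response of 0.44, and the median of the reverse class was 0.37 and -0.62. Both responses reached 1.5-fold in 230 genes (1.99% of genes tested), 111 up and 119 down in Adar-null cells, and both reached 2-fold in 61 (0.528%), 36 up and 25 down. The vehicle difference passed in 51 of the 683 genes (7.47%) and in 79 of the 745 (10.6%), beside 6.51% of all genes, and the IFNb difference in 681 and 743, which the choice of class largely fixes. Which of the 2 classes was larger depended on scaling, with 759 genes up and 658 down in Adar-null cells under upper-quartile scaling. Scaling by library size alone kept 540 of the 683 and 543 of the 745, while the 36 genes with both responses at 2-fold were all kept under each of the 4 other scalings, as were 24 of the 25 in the reverse class. Signs stayed opposite for every gene of these classes in each alternative that tested it.

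Among the 10 genes with the largest opposite responses that rose in Adar-null cells, Ppp1r15a (chr7:45522916-45526268, minus strand) encodes GADD34, the phosphatase subunit that reverses eIF2 phosphorylation. It stood at 67.0, 82.0 and 79.8 CPM in control vehicle and at 14.9, 15 and 19.4 CPM in control IFNb. In Adar-null cells it went from 64.9, 65.0 and 65.2 CPM to 328, 348 and 360 CPM. The groups started within a narrow range (the vehicle difference was -0.23 ± 0.07, adjusted p = 0.0182) and moved apart without overlap, with responses of -2.21 ± 0.10 and 2.41 ± 0.06 and an interaction of 4.62 ± 0.11 (adjusted p = 2.25e-65). Absence of overlap between IFNb and vehicle libraries in both genotypes was a condition for ranking these genes, and it held for 602 of the 683 genes of the class. It also held for 1326 of 1432 amplified genes and for 1778 of 4706 genes with no called interaction.

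Nfil3 (chr13:52967209-52981073, minus strand), a basic leucine zipper repressor linked to circadian and immune genes, was at 27.6, 32.0 and 26.6 CPM in control vehicle and at 8.19, 8.72 and 9.30 CPM in control IFNb. In Adar-null cells it was at 24.8, 24.6 and 24.4 CPM without and at 90.0, 95 and 95.2 CPM with IFNb. The interaction was 3.64 ± 0.16. Angptl6 (chr9:20873808-20879727, minus strand), a secreted angiopoietin-like protein, was at 11.8, 15.7 and 11.7 CPM in control vehicle and below 0.8 CPM in the 3 control IFNb libraries (0.712, 0.286 and 0.310 CPM). In Adar-null cells the same gene stood at 10.1, 13.1 and 10.2 CPM in vehicle and at 33.3, 36.1 and 33.9 CPM with IFNb, an interaction of 6.51 ± 0.54. Akr1b7, an aldo-keto reductase, fell in control cells from 70 counts over the 3 vehicle libraries to 2 counts over the 3 IFNb libraries, a ratio of 0.0259 with an exact counting interval (95%) of 0.00308 to 0.0972. In Adar-null cells it rose from 2.57, 2.35 and 3.92 CPM to 10.6, 15.3 and 16.1 CPM.

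Atp2a3, a calcium pump of the endoplasmic reticulum, had 39 counts in control vehicle and 0 in control IFNb, where 3 counts of the group total set the floor, so it was at least 14.4-fold lower there, and it rose by 1.51 in Adar-null cells. The remaining genes of the 10 were Sspo (an extracellular matrix protein of the brain ventricles, -3.05 and 1.94), Apobr (a lipoprotein receptor, -4.78 and 1.69), Cftr (the chloride channel mutated in cystic fibrosis, -1.66 and 2.40), Rnd1 (a small GTPase that loosens cell adhesion, -1.45 and 2.69), with the control response first, and Bdnf (a neurotrophin), whose interaction was 3.68. Rnd1 is the exception in stability: it stayed in its class in 13 of 18 alternatives, and its control response no longer passed with DESeq2 or without control IFNb library 1 or 2 or control vehicle library 2 or 3. The other 9 kept their class in all 18.

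The genes with the largest responses up in control and down in Adar-null cells included 3 cyclins of the G1 phase. Ccne1 (chr7:38097984-38107534, minus strand), the cyclin E that activates CDK2, stood at 24.9, 25.9 and 25.6 CPM in control vehicle and at 76.4, 76.8 and 73.6 CPM in control IFNb. The Adar-null level moved from 24.7, 22.5 and 23.7 CPM to 5.11, 5.71 and 5.54 CPM. With IFNb its 3 control libraries were all above, and its 3 Adar-null libraries all below, every vehicle library, and the interaction was -3.67 ± 0.19 (adjusted p = 5.63e-41). Absence of overlap within each genotype was again a condition for ranking. It held for 659 of the 745 genes of this class, beside 1326 of 1432 amplified genes and 1778 of 4706 with no called interaction.

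Ccnd1 (chr7:144929931-144939925, minus strand), cyclin D1, the partner of CDK4 and CDK6, rose in control cells from 95.9, 102 and 99.3 CPM to 334, 335 and 347 CPM. In Adar-null cells it fell from 89.1, 97.3 and 88.2 CPM to 40.7, 40.3 and 47.6 CPM, giving responses of 1.77 ± 0.05 and -1.10 ± 0.07. Ccne2, the second cyclin E, moved the same way with an interaction of -2.61. St3gal1 (chr15:67102875-67176830, minus strand), a sialyltransferase that caps O-glycans, rose in control cells from 242, 227 and 227 CPM to 547, 569 and 563 CPM. It fell in Adar-null cells from 206, 198 and 201 CPM to 83.5, 86.9 and 85.6 CPM, with an interaction of -2.51 ± 0.09.

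Dhrs3, a retinal reductase of the retinoid pathway, was at 18.6, 19.1 and 21.3 CPM in control vehicle and at 59.6, 53.3 and 52.2 CPM in control IFNb. In Adar-null cells it was at 14.6, 13.7 and 14.6 CPM in vehicle, already lower than in control vehicle (-0.47 ± 0.13, adjusted p = 0.0121), and at 3.41, 2.25 and 2.37 CPM with IFNb. Lgr6, a receptor for R-spondins in Wnt signalling, had the largest interaction of these genes in size, -5.83 ± 0.87, from levels under 4 CPM in every vehicle library to 14.1, 21.3 and 17.2 CPM in control IFNb and 0.568, 0 and 0.158 CPM in Adar-null IFNb. The others were Klhl30 (1.37 and -1.52), Dmpk (a serine/threonine kinase of muscle, 1.23 and -1.31) and Rab17 (a small GTPase of epithelial trafficking, 1.18 and -2.10). All 9 genes named here kept their class in all 18 alternatives.

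**Figure D2:**
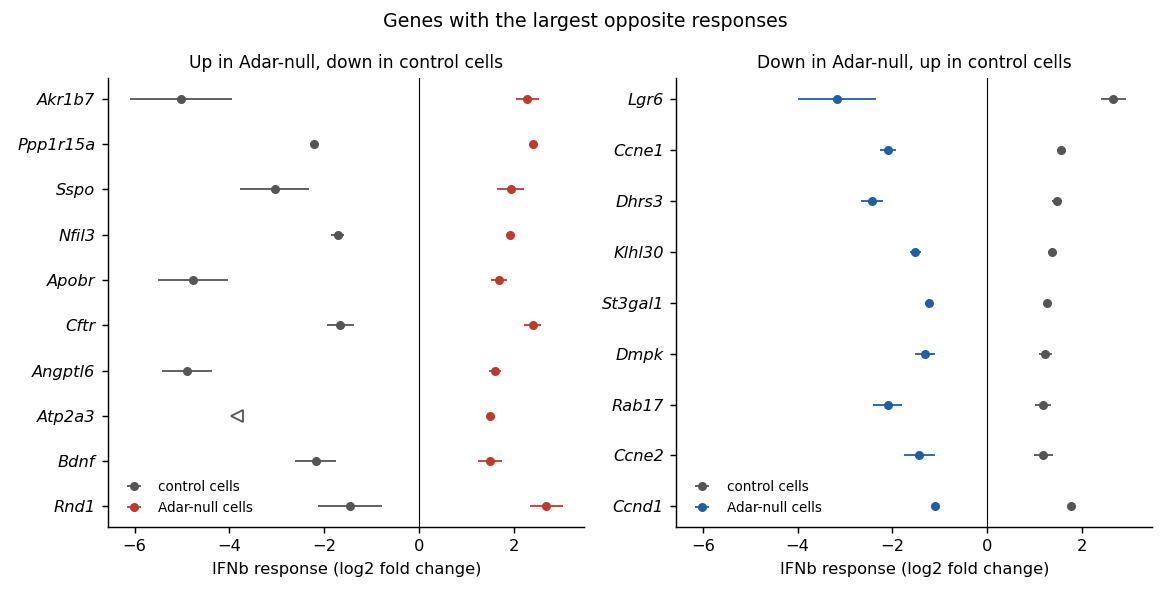
IFNb responses (log2 fold change, points with bars of 1 SE) in control and Adar-null cells for 19 of the genes with the largest opposite responses; the open triangle is the bound of Atp2a3 in control cells, 14.4-fold lower. The 10 in the left panel lie below 0 in control cells and above 0 in Adar-null cells, and the 9 in the right panel the other way; no SE is drawn for Atp2a3.

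The listed ATF4 targets were the group with the most members higher in Adar-null cells: 29 of 30 tested members had a called interaction and all 29 were higher, beside 28.6% of all genes. The median response was -2.05 in control and 0.29 in Adar-null cells. Of the 29, 14 were down in control and up in Adar-null cells, beside 5.91% of all genes. A further 9 fell in both genotypes but by less in Adar-null cells, beside 1.19% of all genes. Another 5 fell in control cells without a called response in Adar-null cells, beside 4.21%, and Sqstm1 rose in both, by more in Adar-null cells. Slc7a3 was not called. In vehicle 4 of the 30 differed between genotypes, beside 6.51% of all genes.

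The 14 opposite members spanned several roles. Trib3 (chr2:152337422-152344032, minus strand), a pseudokinase that feeds back on ATF4, stood at 304, 341 and 328 CPM in control vehicle and at 12.6, 15 and 15.3 CPM in control IFNb. The Adar-null libraries went from 297, 304 and 287 CPM to 548, 592 and 624 CPM, and the interaction of Trib3 was 5.48 ± 0.12 (adjusted p = 4.98e-84). No IFNb library of either genotype overlapped a vehicle library.

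Slc7a11 (chr3:49892526-50443614, minus strand), the light chain of the cystine/glutamate exchanger, showed the same shape: 144, 137 and 132 CPM in control vehicle against 6.05, 5.86 and 5.89 CPM in control IFNb. Its Adar-null libraries held 127, 128 and 150 CPM in vehicle and 243, 261 and 254 CPM with IFNb. Slc3a2 (chr19:8706882-8723369, minus strand), the heavy chain that pairs with it, went from 356, 348 and 381 CPM to 140, 141 and 141 CPM in control cells and from 377, 381 and 366 CPM to 763, 782 and 816 CPM in Adar-null cells. The interactions were 5.44 for Slc7a11 and 2.43 for Slc3a2. The promoter stretch of Slc7a11 printed above holds 2 matches to TGATGNAA.

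Transcription factors of the response followed. Atf3 (chr1:191170296-191218039, minus strand), a repressor of the ATF family, was at 34.8, 44.4 and 39.0 CPM in control vehicle and 15.5, 18.2 and 17.4 CPM in control IFNb. The Adar-null level rose from 28.1, 30.9 and 32.5 CPM to 195, 202 and 192 CPM, and its vehicle level was lower there by -0.37 ± 0.09 (adjusted p = 0.00301). Ddit3, which encodes CHOP, went from 104, 110 and 120 CPM to 77.1, 68.2 and 82.3 CPM in control cells and from 98.3, 115 and 108 CPM to 275, 293 and 295 CPM in Adar-null cells. For these 2 genes the rise in Adar-null cells (2.69 and 1.42) exceeded the fall in control cells (-1.21 and -0.55) in size.

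In most other opposite members the fall in control cells was the larger movement. Cebpb, a C/EBP factor that dimerises with ATF4, had responses of -3.20 ± 0.14 and 0.85 ± 0.07, Atf5 -3.38 ± 0.09 and 0.23 ± 0.05, and Aldh1l2, a mitochondrial folate enzyme, -3.36 ± 0.07 and 0.70 ± 0.05, control first. Chac1, which degrades glutathione, was at 160, 170 and 163 CPM in control vehicle and 15.1, 17.6 and 16.1 CPM in control IFNb, against 146, 152 and 160 CPM and 235, 243 and 240 CPM in Adar-null cells. The responses of Herpud1, a factor of protein degradation at the endoplasmic reticulum, were -2.07 and 0.35, and those of the glycine transporter Slc6a9 were -2.06 and 0.43. Ddit4 and Sesn2, which restrain mTORC1, had interactions of 1.98 and 1.88. All 14 kept their class in all 18 alternatives. Against a 1.5-fold change, Chac1, Atf5, Herpud1, Slc6a9 and Ddit4 were called in control cells only and Ddit3 in Adar-null cells only.

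Atf4 itself fell in control cells (-2.01 ± 0.06), and its Adar-null response was 0.02 ± 0.05, which did not pass the test. The 9 damped members were Asns, Psat1, Phgdh, Psph, Shmt2, Mthfd2, Pck2, Slc7a5 and Slc7a1, mostly enzymes of amino acid and one-carbon metabolism, with 2 amino acid transporters. Asns, which makes asparagine, had responses of -2.18 and -0.23, Phgdh of -1.80 and -0.52, Mthfd2 of -2.60 and -0.69, and Slc7a5 of -2.04 and -0.97. In Adar-null cells these members thus fell while the 14 opposite members of the same list rose.

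**Figure D3:**
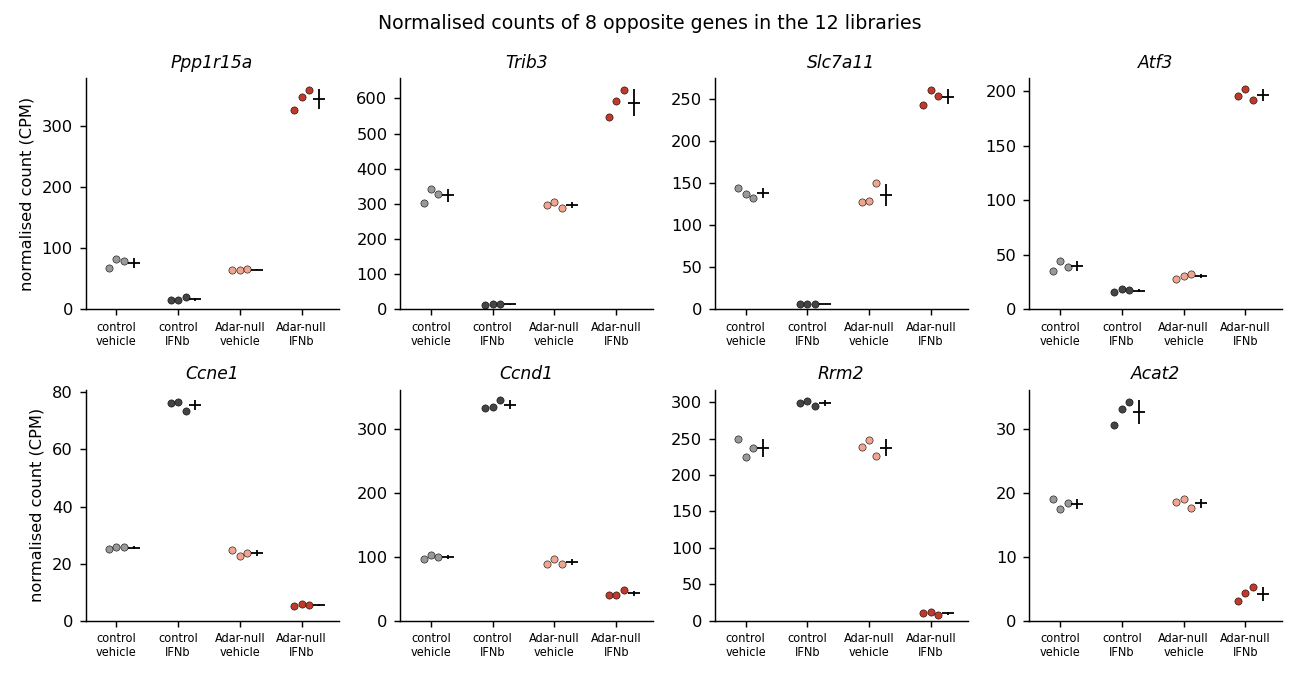
CPM in each of the 12 libraries (points) with the mean and SD of each group for 8 genes of the opposite classes. Ppp1r15a, Trib3, Slc7a11 and Atf3 are lowest in control IFNb and highest in Adar-null IFNb, and Ccne1, Ccnd1, Rrm2 and Acat2 are the reverse.

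Cytosolic aminoacyl-tRNA synthetases charge tRNAs with amino acids, and many are known ATF4 targets. Of 20 tested members, 15 had a higher and 2 a lower interaction, beside 28.6% and 30.7% of all genes. Of the 20, 8 were down in control and up in Adar-null cells, beside 5.91% of all genes. Nars (asparagine) went from 482, 498 and 468 CPM to 184, 178 and 178 CPM in control cells and from 478, 471 and 503 CPM to 575, 586 and 609 CPM in Adar-null cells. Wars (tryptophan), which is also known as an interferon-inducible gene, went from 268, 271 and 258 CPM to 140, 128 and 140 CPM in control cells and from 253, 262 and 256 CPM to 404, 424 and 432 CPM in Adar-null cells. Gars (glycine) fell to 390, 400 and 388 CPM in control cells and rose in Adar-null cells from 922, 926 and 919 CPM to 991, 1034 and 1086 CPM.

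The Adar-null responses of the 8 ran from 0.10 (Aars and Tars) to 0.71 (Wars), and 4 of the 8 kept their class in all 18 alternatives. Against a 1.5-fold change only Wars of the 8 stayed opposite, and the others were called in control cells only. With library size alone the median Adar-null response of the whole list turned from 0.08 to -0.00855. The 8 genes kept opposite signs there, but only 4 of them (Nars, Wars, Eprs and Gars) stayed in the class. Whether the small rises pass the test thus depends on scaling, while the median control response was -0.93 in the fit used here. Qars (glutamine) and Kars (lysine) moved the other way, although Kars kept its class in only 12 of 18 alternatives and lost it with upper-quartile scaling, library size alone and DESeq2. Qars rose in control cells from 100, 102 and 94.3 CPM to 130, 129 and 138 CPM and fell in Adar-null cells from 95.6, 104 and 95.9 CPM to 87.3, 81.2 and 82.1 CPM. None of the 20 differed between genotypes in vehicle, where 6.51% of all genes did.

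The replication list moved as a block in the other direction. All 34 tested genes of the G1 to S transition and DNA replication had a lower interaction, beside 30.7% of all genes, with a median response of 0.15 in control and -2.74 in Adar-null cells. Of the 34, 19 rose in control cells and fell in Adar-null cells, beside 6.44% of all genes. A further 12 fell in Adar-null cells without a called control response, beside 11.8% of all genes. Another 3 (Mcm2, Rfc2 and Rfc4) fell in both, by more in Adar-null cells, beside 7.14%. Across the 4 other scalings and DESeq2 the opposite count ran from 15 to 19, and 14 of the 19 kept their class in all 18 alternatives. Testing against a 1.5-fold change is not among the 18. There only Ccne1 and Ccne2 stayed opposite, and the others of the 19 were called in Adar-null cells only. In vehicle, 3 of the 34 differed between genotypes, beside 6.51% of all genes.

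Rrm2 (chr12:24708241-24714146, plus strand), the small subunit of ribonucleotide reductase, which makes deoxynucleotides, was at 249, 225 and 237 CPM in control vehicle and 299, 302 and 295 CPM in control IFNb. The Adar-null libraries went from 238, 248 and 226 CPM to 10.8, 11.7 and 8.07 CPM, an interaction of -4.88. Cdc6, which loads the replicative helicase, went from 29.5, 25.9 and 24.0 CPM to 48.1, 44.9 and 42.6 CPM in control cells and from 25.0, 29.7 and 30.3 CPM to 1.33, 0.601 and 0.475 CPM in Adar-null cells. The rise in control cells was modest in both (0.33 and 0.77), and the fall in Adar-null cells was large (-4.54 and -5.17).

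E2f1 (chr2:154559407-154569892, minus strand), an activator of this gene set, rose in control cells from 48.5, 51.0 and 50.8 CPM to 60.5, 63.4 and 67.0 CPM and fell in Adar-null cells from 45.7, 52.6 and 46.0 CPM to 4.54, 6.46 and 7.59 CPM. E2f2 had responses of 0.59 and -4.03. Uhrf1, which recognises hemimethylated DNA behind the fork, went from 203, 209 and 202 CPM to 286, 277 and 278 CPM in control cells and from 238, 241 and 217 CPM to 13.4, 17.4 and 16.0 CPM in Adar-null cells. Uhrf1 was also higher in Adar-null vehicle than in control vehicle (0.18 ± 0.06, adjusted p = 0.00927).

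Chaf1a, a histone chaperone subunit at the fork, had responses of 0.33 and -2.93, Pcna, the sliding clamp, an interaction of -2.28, and Fen1, the flap nuclease, 0.40 and -1.96. The smallest control rises of the 19 were those of Mcm6 (0.11), Rrm1 (0.13), Tk1 (0.18) and E2f8 (0.21), and these 4 left the class in 4 to 8 of the 18 alternatives. The helicase subunits were split between classes: Mcm4 and Mcm6 were opposite, Mcm3, Mcm5 and Mcm7 were called in Adar-null cells only, and Mcm2 fell in both.

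Mitotic genes differed from the replication genes in their control response. All 30 tested members of the G2 and mitosis list had a lower interaction, beside 30.7% of all genes. However, 26 fell in both genotypes, by more in Adar-null cells, beside 7.14% of all genes. Another 4 fell in Adar-null cells only, beside 11.8%, and none was opposite, beside 12.4%. The median response was -0.49 in control and -3.35 in Adar-null cells. Ccna2, cyclin A2, was at 135, 140 and 133 CPM in control vehicle and 108, 107 and 109 CPM in control IFNb, and went from 125, 140 and 123 CPM to 7.01, 7.82 and 6.64 CPM in Adar-null cells. Aurkb, a mitotic kinase, went from 116, 108 and 105 CPM to 4.17, 4.66 and 3.64 CPM in Adar-null cells and responded by -0.17 in control cells. Mki67, the proliferation marker whose promoter is printed above, had responses of -0.51 and -3.72. The difference between the replication and mitotic lists is a description of their counts and medians, and was not tested.

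**Figure D4:**
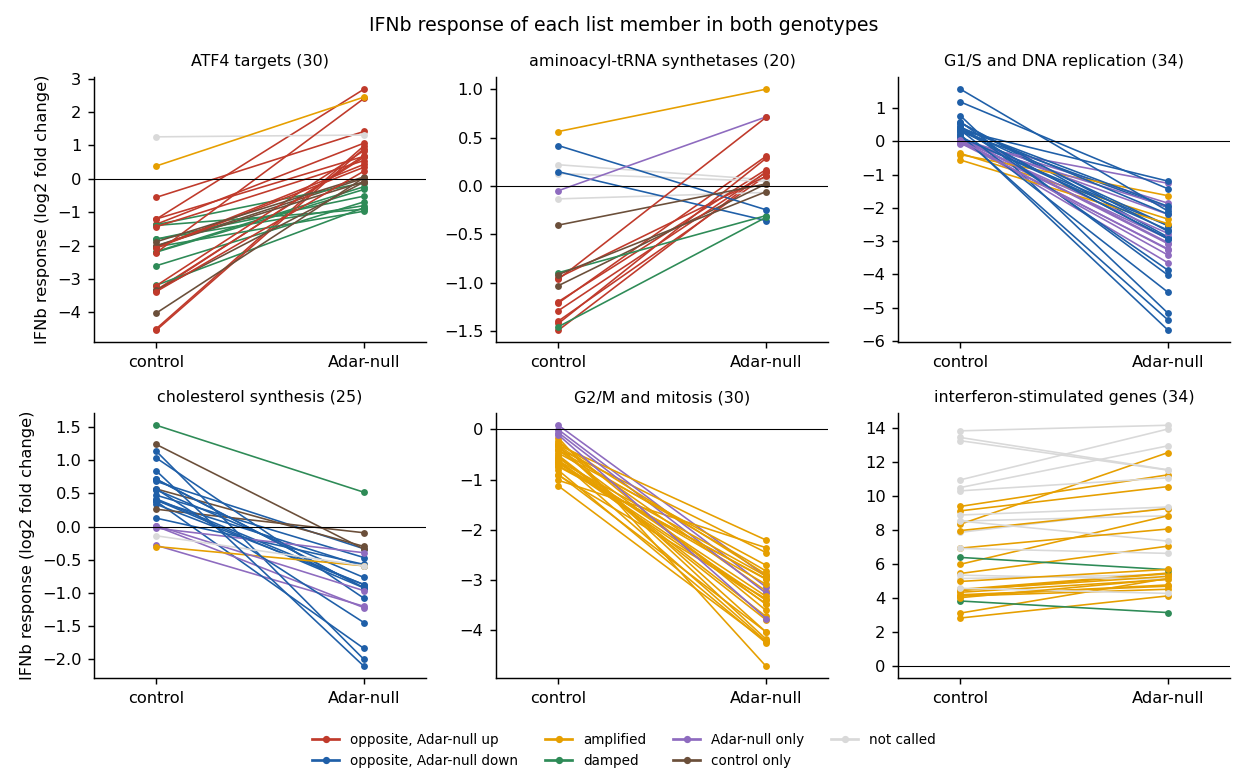
IFNb response (log2 fold change) in control and Adar-null cells of each tested member of 6 gene lists; fitted values of genes with 0 counts in a group depend on the prior count. The ATF4 targets lie mostly below 0 in control cells, the mitotic genes lie below 0 in both genotypes apart from near-0 control values, and the replication genes spread around 0 in control cells and far below it in Adar-null cells.

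Cholesterol synthesis was the second list whose members mostly rose in control cells and fell in Adar-null cells. Of 25 tested members, 24 had a lower interaction, beside 30.7% of all genes, and 15 were opposite in this direction, beside 6.44%. The median response was 0.42 in control and -0.87 in Adar-null cells. In vehicle, 5 of the 25 differed between genotypes, beside 6.51% of all genes. The opposite count ran from 13 to 15 across scalings and was 12 with DESeq2, and 12 of the 15 kept their class in all 18 alternatives. Against a 1.5-fold change most of the 15 left the class, among them Fdps, Stard4 and Hmgcs1, while Acat2 and Dhcr7 stayed.

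Acat2 (chr17:12942890-12960747, minus strand), a cytosolic thiolase at the head of the pathway, went from 19.0, 17.5 and 18.4 CPM to 30.6, 33.2 and 34.2 CPM and from 18.5, 19.1 and 17.6 CPM to 3.03, 4.36 and 5.22 CPM. The IFNb libraries of both genotypes lay outside the range of the vehicle libraries, on opposite sides.

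Hmgcs1, the synthase ahead of the mevalonate step, whose SREBP letters are printed above, went from 74, 73.2 and 72.4 CPM to 117, 113 and 123 CPM in control cells and from 66.1, 59.5 and 65.2 CPM to 49.8, 49.2 and 51.9 CPM in Adar-null cells. Dhcr7 had responses of 0.72 and -0.92, Stard4, a sterol carrier, of 0.57 and -1.45, and Fdps, which makes farnesyl diphosphate, of 0.38 and -1.84. Fdps kept its class in 14 of 18 alternatives. It lost the class with library size alone, with DESeq2 and without control IFNb library 3 or control vehicle library 1. Srebf2, which encodes SREBP2, had a control response of 0.02 that did not pass and fell by 0.97 in Adar-null cells, and Hsd17b7 rose in both genotypes, by less in Adar-null cells.

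Outside these 4 lists, opposite members were scattered, and their counts are read beside the 12.4% of all tested genes that were opposite. Of 16 tested NF-kB and chemokine genes, 11 had a higher interaction, beside 28.6% of all genes, and none a lower one. The 1 opposite gene among them was Relb (chr7:19606217-19629438, minus strand), a subunit of the alternative NF-kB pathway. It went from 6.50, 6.27 and 7.40 CPM to 3.56, 3.15 and 3.41 CPM in control cells and from 6.51, 5.66 and 6.24 CPM to 89.2, 93.5 and 83.4 CPM in Adar-null cells. Its partner Nfkb2 responded in Adar-null cells only (2.18, against -0.01 in control cells).

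Among 20 p53 targets, 15 had a higher interaction, beside 28.6% of all genes. Of the 20, 10 rose in both genotypes, by more in Adar-null cells, beside 5.24% of all genes. Among these was Cdkn1a, the CDK inhibitor p21, at 2.56 and 3.48. Opposite members were Bbc3, which encodes the death factor PUMA, Rrm2b and Sesn2 upward and Sesn1 downward. Bbc3 was at 12.7, 15.2 and 15 CPM in control vehicle and 10.3, 11.3 and 11.2 CPM in control IFNb, and rose in Adar-null cells from 11.7, 14.6 and 14.6 CPM to 70.1, 80.4 and 73.6 CPM. With a control response of -0.38, Bbc3 stayed in the class in 15 of 18 alternatives, and Sesn1 stayed in 17.

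Of 20 heat shock and NRF2 targets, 11 had a higher and 7 a lower interaction, beside 28.6% and 30.7% of all genes. Hmox1 (chr8:75093621-75100589, plus strand), heme oxygenase 1, went from 98.9, 102 and 109 CPM to 48.6, 56.9 and 52.7 CPM in control cells and from 89.9, 96.9 and 95.5 CPM to 428, 456 and 466 CPM in Adar-null cells, an interaction of 3.22. Gclm, a subunit of the glutathione-making ligase, had responses of -0.44 and 1.05. The constitutive chaperone Hspa8 moved the other way, from 137, 119 and 130 CPM to 252, 252 and 251 CPM in control cells. In Adar-null cells Hspa8 went from 160, 167 and 162 CPM to 141, 137 and 144 CPM. Its Adar-null vehicle libraries thus all started above its control vehicle libraries. Hsp90ab1 also moved this way (0.27 and -0.27), whereas the inducible Hspa1b rose in both (1.04 and 3.89).

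Genes of protein folding in the endoplasmic reticulum were mixed, with 8 of 19 higher and 10 lower, beside 28.6% and 30.7% of all genes. The sensors Ern1, which encodes IRE1 (-0.67 and 0.81), and Atf6 (-1.01 and 0.49), and Sel1l of the degradation machinery (-0.92 and 0.31), were opposite upward, and the disulfide isomerase Pdia6 (0.40 and -0.17) was opposite downward. The chaperone Hspa5 (BiP) and Xbp1 rose in both genotypes, by more in Adar-null cells. Among 17 immediate early genes, Klf4 (-1.48 and 0.77), Ier2 (-0.23 and 0.73) and Atf3 were opposite, while Jun, Junb and Fosl2 rose in both, by more in Adar-null cells.

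The remaining lists are read against the 12.4% of all tested genes that were opposite and the 30.7% with a lower interaction. In the lysosome list 6 of 24 were opposite: Atp6v1h (a pump subunit, -0.23 and 0.91), Atp6v0d1, Lamp1 and Lamp2 upward, and Gusb (0.32 and -1.10) and Ctsz (0.47 and -0.37) downward. Lamp1 kept its class in 12 and Lamp2 in 15 of 18 alternatives. Of 27 oxidative phosphorylation genes 23 had a lower interaction and 3 were opposite: Sdhd, a subunit of succinate dehydrogenase, at 0.38 and -0.85, and Cyc1 and Atp5a1, which each kept their class in only 12 of 18 alternatives and lost it with upper-quartile scaling and library size alone. In the matrix list 3 of 16 were opposite, Timp3 upward and Mmp2 and Sparc downward, in the pigment list Slc45a2 and Gpr143 downward, and in the MYC and ribosome biogenesis list Cad (0.58 and -0.16) downward. Mmp2 kept its class in 10 and Slc45a2 in 13 of 18 alternatives, both losing it with upper-quartile scaling, library size alone and DESeq2, and Timp3 lost it with library size alone. In the receptor and JAK-STAT list the phosphatases Ptpn2 (-0.35 and 0.30) and Ptpn6 (0.65 and -1.21) were opposite to each other. Glycolysis and hypoxia genes had no opposite member: 22 of 25 had a lower interaction. Of the 25, 18 were amplified, all of these falling in both genotypes, beside 7.14% of all genes. However, 18 of the 25 already differed between genotypes in vehicle, beside 6.51% of all genes.

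**Figure D5:**
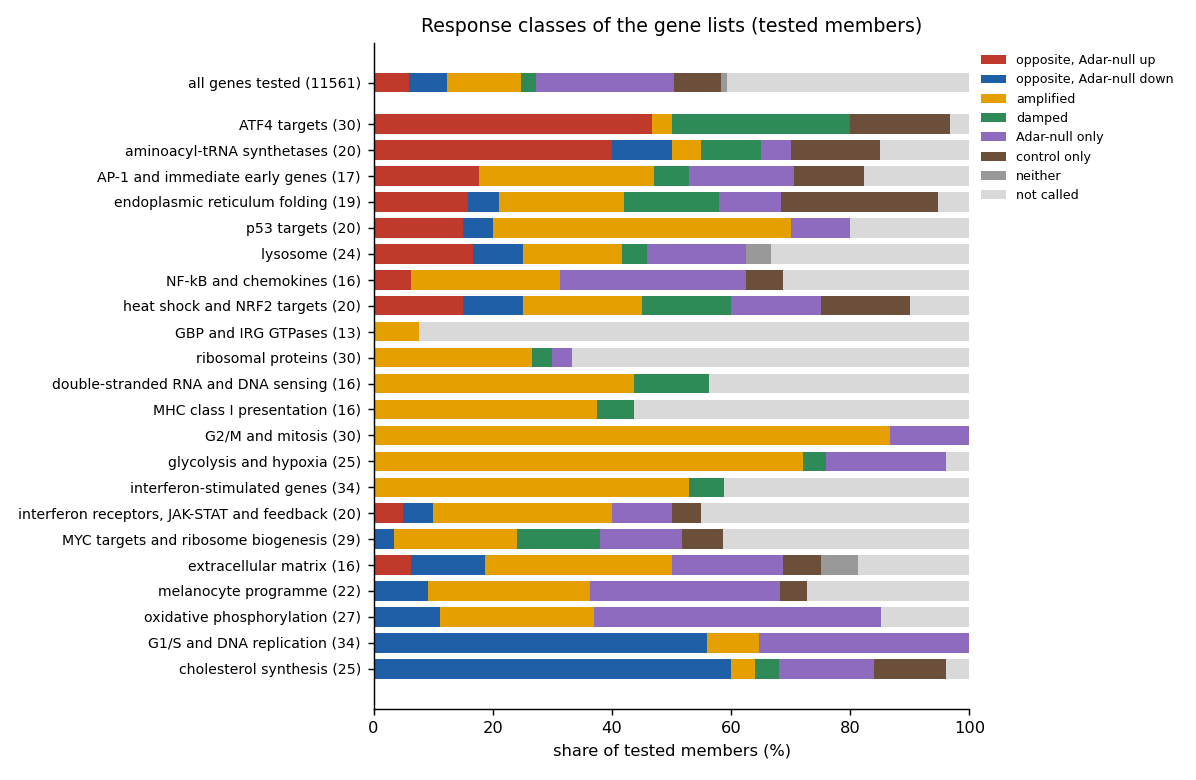
Share of the tested members of each gene list in each response class (percent, stacked), for lists with at least 10 tested members and for all genes tested. Opposite responses fill 14 of 30 ATF4 targets, 19 of 34 replication genes and 15 of 25 cholesterol genes, and no member of the interferon-stimulated or mitotic lists.

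Interferon-stimulated genes responded in the same direction in both genotypes. Of 34 tested, 18 were amplified, all of these rising in both genotypes, beside 5.24% of all genes. Another 2 (Ifitm3 and Lgals3bp) were damped, rising by less in Adar-null cells, beside 1.29%. A further 14 had no called interaction, beside 40.7%, and none was opposite. Ifit2, which binds viral RNA, was at 62.2, 60.2 and 52.4 CPM in control vehicle and at 515, 502 and 508 CPM in control IFNb. The Adar-null level rose from 49.3, 55.4 and 57.4 CPM to 1979, 1931 and 1900 CPM, an interaction of 2.04 ± 0.10. Mx1, a GTPase that blocks viruses, had an interaction of 2.85 ± 0.35, rising to 96.7, 116 and 110 CPM in control and 1185, 1132 and 1165 CPM in Adar-null cells. The interactions of Oasl1, Usp18 and Ddx58 lost their call without single vehicle libraries (adjusted p of 0.0584 to 0.105 for Oasl1, 0.132 for Usp18 without control vehicle library 3, and 0.0624 for Ddx58 without Adar-null vehicle library 3). All 3 were under 6 CPM in every vehicle library.

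Among the amplified genes that met the naming rule, the highest interactions were those of 2 secreted factors, Ccl5 and Lif, and of an enzyme, Hdc. Ccl5, a chemokine for T cells, was at 0.879, 0.990 and 0.903 CPM in control vehicle and 5.52, 3.29 and 4.80 CPM in control IFNb, and went in Adar-null cells from 0.857, 0.552 and 1.43 CPM to 267, 262 and 265 CPM. The interaction was 5.91 ± 0.53. Lif, a cytokine of the IL-6 family, had 0 counts in Adar-null vehicle and was at least 33.0-fold higher with IFNb there; without control IFNb library 1 or control vehicle library 2 its control response no longer passed. Hdc, which makes histamine, rose in Adar-null cells from 1 to 200 counts over the group (ratio 205, 95% counting interval 36.3 to 8128), and its interaction lost its call without control vehicle library 1 (adjusted p = 0.179).

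The lowest interactions of the amplified class were those of Kbtbd11, a Kelch protein, Hist1h2af and Neil3. Kbtbd11 had 548 counts in Adar-null vehicle and 0 with IFNb, at least 178-fold lower, against a control response of -0.74. Hist1h2af, a replication-dependent histone, went from 82.9, 83.1 and 73.6 CPM to 1.14, 1.2 and 1.74 CPM in Adar-null cells and from 72.6, 69.6 and 78.4 CPM to 56.3, 53.5 and 53.8 CPM in control cells. Neil3, a DNA glycosylase, fell to between 0.301 and 0.568 CPM in Adar-null cells and to between 15.3 and 15.9 CPM in control cells.

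Among damped genes that fell less in Adar-null cells, Pck2, mitochondrial PEP carboxykinase and a member of the ATF4 list, went from 315, 327 and 308 CPM to 31.1, 33.2 and 39.7 CPM in control cells and from 324, 339 and 324 CPM to 175, 177 and 191 CPM in Adar-null cells. Gpt2, an alanine transaminase, had responses of -3.05 and -0.71. G0s2, an inhibitor of lipolysis, fell in control cells from 157 counts to 3 (ratio 0.0173, 95% counting interval 0.00354 to 0.0516) and by 1.07 in Adar-null cells. Genes that rose less in Adar-null cells included Slfn9, of the Schlafen family, which went from 36.7, 32.3 and 30.9 CPM to 208, 218 and 196 CPM in control cells and from 33.9, 32.0 and 32.1 CPM to 68.6, 82.1 and 79.9 CPM in Adar-null cells. Art3 (1.65 and 0.51) started higher in Adar-null vehicle (0.54 ± 0.16, adjusted p = 0.0166). Apol9a had 0 counts in control vehicle and was at least 1494-fold higher with IFNb. Its interaction (adjusted p = 0.0427) was lost with DESeq2 (0.0931), with limma-voom (0.0651) and with no count filter (0.0608). It was also lost without any 1 control vehicle library (0.0865 to 0.0937) and without Adar-null vehicle library 1 (0.110).

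Genes that responded in Adar-null cells while the control response was under 0.25 were led upward by Cdsn, a protein of skin cell junctions, Notch3, a Notch receptor, and Adh7, an alcohol dehydrogenase. Cdsn was at 1.55 to 2.67 CPM in the 6 control libraries and went from 1.37, 1.10 and 1.07 CPM to 52.5, 49.5 and 60.3 CPM in Adar-null cells. Notch3 went from 1.03, 1.24 and 0.178 CPM to 7.58, 8.12 and 10.8 CPM, but it was lower in Adar-null vehicle than in control vehicle (-1.97 ± 0.46, adjusted p = 0.000506). Downward, Rad54l, a recombination ATPase, went from 24.0, 24.4 and 27.8 CPM to 0.947, 1.2 and 0.791 CPM in Adar-null cells and stood at 24.5 to 28.2 CPM in all 6 control libraries. Fam64a, a mitotic regulator, went from 42.5, 43.4 and 40.8 CPM to 0.758, 1.05 and 0.791 CPM, and Npnt, a matrix ligand of integrins, had an interaction of -4.93 and became amplified with library size alone.

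Genes that responded in control cells while the Adar-null response was under 0.25 were led by Nupr1, a stress-induced chromatin protein, Cyb5r2 and Cth, which makes cysteine. Nupr1 (chr7:126623249-126630861, minus strand) went from 78.2, 70.8 and 71.7 CPM to 3.38, 5.29 and 4.65 CPM in control cells and stood at 75.5, 83.2 and 83.1 CPM without and 85.4, 77.3 and 86.1 CPM with IFNb in Adar-null cells. The Adar-null vehicle and IFNb libraries overlap, and the interaction was 4.06 ± 0.18. Cth went from 53.8, 52.6 and 54.4 CPM to 5.88, 4.86 and 5.27 CPM in control cells, with an Adar-null response of -0.10 ± 0.08 that did not pass. Cth and Cyb5r2 became damped with library size alone. Tinagl1 (a matrix protein, interaction -1.62), Cacna1a (a calcium channel subunit, -1.62) and Pdlim1 (a cytoskeletal adaptor, -1.53) rose in control cells and did not pass in Adar-null cells.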

How the data were processed

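The authors deposited 1 table of raw counts per gene symbol for the 12 libraries. Per the submitters' processing notes, bcl2fastq 2.19.1, Trimmomatic 0.33, Bowtie2 2.2.4, HTSeq 0.6.1p1, DESeq2 and build mm10 were used; the annotation and the strand setting of counting were not given in the sources used here, so overlapping and antisense genes are uncertain. An interferon gamma arm named in the design was not analysed here.

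All libraries were fitted once with edgeR 4.0.16 (R 4.3.3): filterByExpr, TMM scaling, robust quasi-likelihood, 1 term per group, Benjamini-Hochberg adjustment over 11561 of 23336 symbols. Of the symbols, 25 read as dates and were not named. On simulated counts (11367 genes), 100 genes were given a 1.5-fold and 100 a 2-fold interaction, with equal start levels in both genotypes. Of these, 70% of the 1.5-fold and 81% of the 2-fold changes were recovered, and 2.581% of the calls were false. Changed genes were few and balanced in direction there, whereas 59.3% of genes were called in the data, so these shares need not hold for them.

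Genes named by rule were, in each opposite class, the 10 with the largest smaller response, and in each direction of the other classes, the 3 with the largest interaction. All of these ranked genes needed at least 5 CPM in a group. Their IFNb and vehicle libraries also had to be non-overlapping in the genotypes said to respond. Of each list the 3 with the largest interaction and every opposite member were named too. Other list members and the promoters shown were picked after their values were seen. A few genes that met this rule are not reported here. Members and lists were chosen with earlier results of these data known. Depth limits low genes: 3 counts over a group equal 0.157 to 0.174 CPM, and intervals cover counting error only. Alternatives were 4 scalings, 2 filters, DESeq2 1.42.0, limma-voom (limma 3.58.1), 2 thresholds, a replicate block and leaving out each library; class stability was counted over 18 of them (the 4 scalings, the 2 other tests and the 12 left-out libraries).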

Additional observations from a re-analysis of the deposited data

Results flagged for a closer look

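The 43 genes below were singled out because their IFNb response differed between the 2 genotypes by the interaction test itself; their values are log2 interactions, and the genes were the most extreme of their class, so their size is not a sample of all genes.

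Among genes down in control and up in Adar-null cells the interaction was 7.30 for Akr1b7, 4.62 for Ppp1r15a, 4.99 for Sspo, 3.64 for Nfil3, 6.47 for Apobr, 4.06 for Cftr, 6.51 for Angptl6, 8.31 for Atp2a3, 3.68 for Bdnf and 4.14 for Rnd1. Among genes up in control and down in Adar-null cells it was -5.83 for Lgr6, -3.67 for Ccne1, -3.91 for Dhrs3, -2.88 for Klhl30, -2.51 for St3gal1, -2.54 for Dmpk, -3.28 for Rab17, -2.61 for Ccne2 and -2.87 for Ccnd1.

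Among amplified genes it was 6.01 for Lif, 5.91 for Ccl5, 5.11 for Hdc, -9.75 for Kbtbd11, -5.42 for Hist1h2af and -5.30 for Neil3. Among damped genes it was 4.61 for G0s2, 2.33 for both Gpt2 and Pck2, -3.44 for Apol9a, -1.40 for Slfn9 and -1.13 for Art3. The fitted values of Atp2a3, Lif, Kbtbd11 and Apol9a depend on the prior count because 1 group of each held 0 counts, and they are no bounds.

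Among genes called in Adar-null cells only it was 5.30 for Cdsn, 3.53 for Notch3, 3.01 for Adh7, -5.60 for Fam64a, -4.93 for Npnt and -4.60 for Rad54l. Among genes called in control cells only it was 4.06 for Nupr1, 3.34 for Cyb5r2, 3.24 for Cth, -1.62 for both Tinagl1 and Cacna1a and -1.53 for Pdlim1.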

How the results depend on the processing

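No interaction of a gene named by rule reversed its sign under any alternative, and counts over all genes not given here stayed within 1.5 times their value; counts and medians of gene lists moved more in places, amplified interferon-stimulated genes numbering 10 and not 18 against a 1.5-fold change. Against a 1.5-fold change the interaction was called higher for 1038 and lower for 1554 genes (40.0% higher, against 48.3% in the fit reported), the control response for 980, the Adar-null response for 3301, the vehicle difference for 17 and the IFNb difference for 3306; amplified genes then numbered 121, damped 10, Adar-null only 1683, control only 236, opposite 46 up and 38 down in Adar-null cells, and called with neither response 458. With a mean of at least 50 counts, 80 genes were called with neither response, and 18 and 14 were opposite at 2-fold, fewer genes being tested. DESeq2 called the vehicle difference for 324 genes. At an adjusted p under 0.01 the vehicle difference was called for 354 genes and 171 were damped.

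Leaving out 1 library at a time gave 3058 to 3232 higher and 3409 to 3551 lower interactions, 5533 to 6178 control responses, 7971 to 8447 Adar-null responses and 8001 to 8466 IFNb differences. Amplified genes ran from 1238 to 1410, damped from 243 to 278, Adar-null only from 2536 to 2926, control only from 795 to 931, opposite from 591 to 671 up and from 664 to 744 down, opposite at 2-fold from 34 to 39 and from 24 to 29, and called with neither response from 108 to 147. The vehicle difference ran from 308 to 801, with 308 without control vehicle library 2 and 393 and 463 without Adar-null vehicle libraries 1 and 2; the cause was not tested.

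Of the 683 genes opposite upward in Adar-null cells 391, and of the 745 downward 445, kept their class in all 18 alternatives; among those with both responses at 2-fold, 31 of 36 and 20 of 25 did. Library size alone moved the median response of all genes to -0.0801 in control and -0.0783 in Adar-null cells. Of the 171 genes named by rule, 19 lost their interaction call against a 1.5-fold change, 4 at an adjusted p under 0.01, 3 with DESeq2, 2 with limma-voom, 2 with no count filter and 1 with library size alone, and up to 4 without any 1 library.

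Same-numbered libraries of different groups did not deviate together (18 pairs, correlations from -0.066 to 0.0642, none over 0.1). Of the 12 libraries, 2 correlated best with their own number. No pairing by number was seen, but weak correlations cannot show that same-numbered libraries were grown or prepared apart. With the replicate block 3288 interactions were higher and 3528 lower, and 673 and 738 genes were opposite. Depth limits genes near 3 counts over a group, where responses have wide errors.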

Other observations

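Of the p53 targets, 3 that rose in both genotypes and by more in Adar-null cells are given as examples: the CDK inhibitor gene Cdkn1a had responses of 2.56 and 3.48, Btg2 of 1.76 and 4.90, and Plk2 of 1.51 and 3.58, control first. Among glycolysis genes Eno2 was the exception to the falls, with 2.97 in Adar-null cells and a control response of -0.26 that did not pass, and Vegfa fell in both genotypes, with -1.36 in control and -0.26 in Adar-null cells. These genes were chosen after their values were seen.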
